A study of Sus scrofa with 16 samples.

Results

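Dividing cells switch on genes of DNA replication and mitosis, and 8 of them were followed here in pig fat: BIRC5, CCNB1, CCNB2, PLK1, AURKA, TOP2A, BUB1 and RFC4. Members were the probes named for 1 of these genes that the scanner software marked as well above background on at least 8 of 16 arrays. The array carried 12 probes with such a name, and 11 of them met the rule, out of 43603 probes that were not controls. They stood for 6 genes: AURKA with 3 probes, BIRC5, CCNB2 and RFC4 with 2 each, and CCNB1 and PLK1 with 1 each. The remaining RFC4-named probe was well above background on 0 arrays, and no probe bore the name TOP2A or BUB1. The probes were thus chosen by their detection marks, which are given as a description with no test; the member nearest to the limit was marked on 14 arrays.

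The samples were subcutaneous adipose tissue from 16 pigs of 20 kg body weight fed without restriction, 8 of a line with low residual feed intake (low-RFI, RFIneg) and 8 of a line with high residual feed intake (high-RFI, RFIpl). Residual feed intake is the part of an animal's feed consumption that its growth and body size do not account for. Total RNA of each pig was hybridised in 1 colour to an array of its own. Breed, sex and age were not given in the sources used here. Replicates were numbered 1 to 8 in each line, and what separates numbers 1-4 from 5-8 was not given either. The 16 arrays lay on 4 slides, each with 1 pig of either line from either replicate set.

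As background, a cell that is about to divide copies its DNA, condenses its chromosomes and then pulls them apart on a spindle. Cyclins B1 and B2 (CCNB1, CCNB2) switch on the kinase that starts mitosis, and the kinases PLK1 and AURKA drive the ripening of the spindle poles and the building of the spindle. Survivin (BIRC5) belongs to the complex that checks how chromosomes are attached, and TOP2A untangles the copied DNA. RFC4 is a subunit of the clamp loader of DNA replication. Mature fat cells do not divide, whereas precursor, vascular and immune cells of fat tissue can.

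The sequences below bear on what 2 of the genes' probes measure. A pair of AURKA probes overlap, and the capitals mark the 27 bases they share, so they are not independent readings:

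AURKA A_72_P078066: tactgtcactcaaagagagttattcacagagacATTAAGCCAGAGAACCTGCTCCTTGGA

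AURKA A_72_P477497: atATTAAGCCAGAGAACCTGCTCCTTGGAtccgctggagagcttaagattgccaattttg

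The RFC4-named probes that met the rule are shown because the scanner files name them for 1 gene and describe them as another. All 3 RFC4-named probes cite 1 transcript, described there as that of the insulin-like growth factor 2 mRNA binding protein 2 (IGF2BP2), an RNA-binding protein and no replication factor. In the RefSeq annotation of the Sscrofa11.1 assembly the genes RFC4 and IGF2BP2 lie on the same chromosome with 16 genes starting between them:

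RFC4-named A_72_P098946: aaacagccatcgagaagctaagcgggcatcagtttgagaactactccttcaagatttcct

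RFC4-named A_72_P486592: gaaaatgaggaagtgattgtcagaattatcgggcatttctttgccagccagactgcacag

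What they measure was not settled here. Another probe on the array, described as IGF2BP2 only, followed the mean of these 2 probes with a Pearson r of 0.95 over 16 arrays (0.93 within replicates 1-4 and 0.76 within 5-8). No other probe of RFC4 was at hand for comparison. These probes are called RFC4-named below, and counts and means over the members are given with and without them.

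Signals are log2 values relative to the 75th percentile of each array, so that 0 is the signal that 75% of the array's probes lie under; levels of different probes cannot be compared. Between 68.7% and 80.3% of spots were well above background on an array, with 0 saturated spots. The share averaged 75.3% ± 3.83 (SD, n = 8) in replicates 1-4 and 72.9% ± 2.34 (SD, n = 8) in replicates 5-8, and correlated with the mean of the 6 genes at r = -0.09 over 16 arrays (0.35 within replicates 1-4 and 0.21 within 5-8). The 75th percentile of each array's log2 signal, which scales the values, ran from 8.65 in low-RFI pig 1 to 9.12 and correlated with that mean at r = 0.24 over 16 arrays, 0.62 within replicates 1-4 and 0.02 within 5-8. Its part in the results was not tested. The fat cell genes ADIPOQ and FABP4 averaged 8.33 and 8.52, and the summed signal of the 11 fat cell markers ranged from 10.4 to 11.1. Some arrays stood apart in markers of other cells, expressed as the log2 of the summed linear signal, relative to the median array. Such sums, also those for fat cells above and for the lists below, follow a list's brightest markers most. Low-RFI pig 8 was 6.02 higher in skeletal muscle markers, where the other arrays lay between -0.57 and 0.73. High-RFI pig 5 was 1.69 higher in T and NK cell markers and 1.65 higher in macrophage markers. High-RFI pigs 6 and 2 were 2.48 and 1.53 higher in epithelial markers, and high-RFI pig 7 was 2.06 higher. The epithelial sum varied as widely downward, with low-RFI pigs 2 and 4 at -2.48 and -2.29 and high-RFI pig 1 at -1.86. An earlier analysis of these arrays had set apart low-RFI pig 8 and high-RFI pigs 2, 5 and 6, and results are also given without those 4.

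Survivin showed the clearest separation between the replicate sets. Its probe A_72_P303219 had a lowest, median and highest signal of -0.79, -0.19 and 0.08 in the 8 pigs of replicates 1-4, and of 0.17, 0.71 and 1.19 in the 8 pigs of replicates 5-8. Every pig of replicates 5-8 was therefore above every pig of replicates 1-4. The probe was 2.03-fold higher in replicates 5-8 (95% interval 1.57 to 2.62), a log2 difference of 1.02 (SE 0.17, limma adjusted p = 0.0112). The second BIRC5 probe ran from -1.23 through -0.24 to -0.02 in replicates 1-4 and from -0.05 through 0.60 to 1.19 in replicates 5-8, a difference of 1.02 (SE 0.20, limma adjusted p = 0.0164). Here low-RFI pig 5 lay just under low-RFI pig 3, the highest of replicates 1-4. Sets of pigs that did not overlap, higher in 5-8, occurred for 0.122% of the 32096 probes tested and for 1 of the 11 members. In whole tissue, fewer cells of a type and less RNA per cell cannot be told apart.

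**Figure D1:**
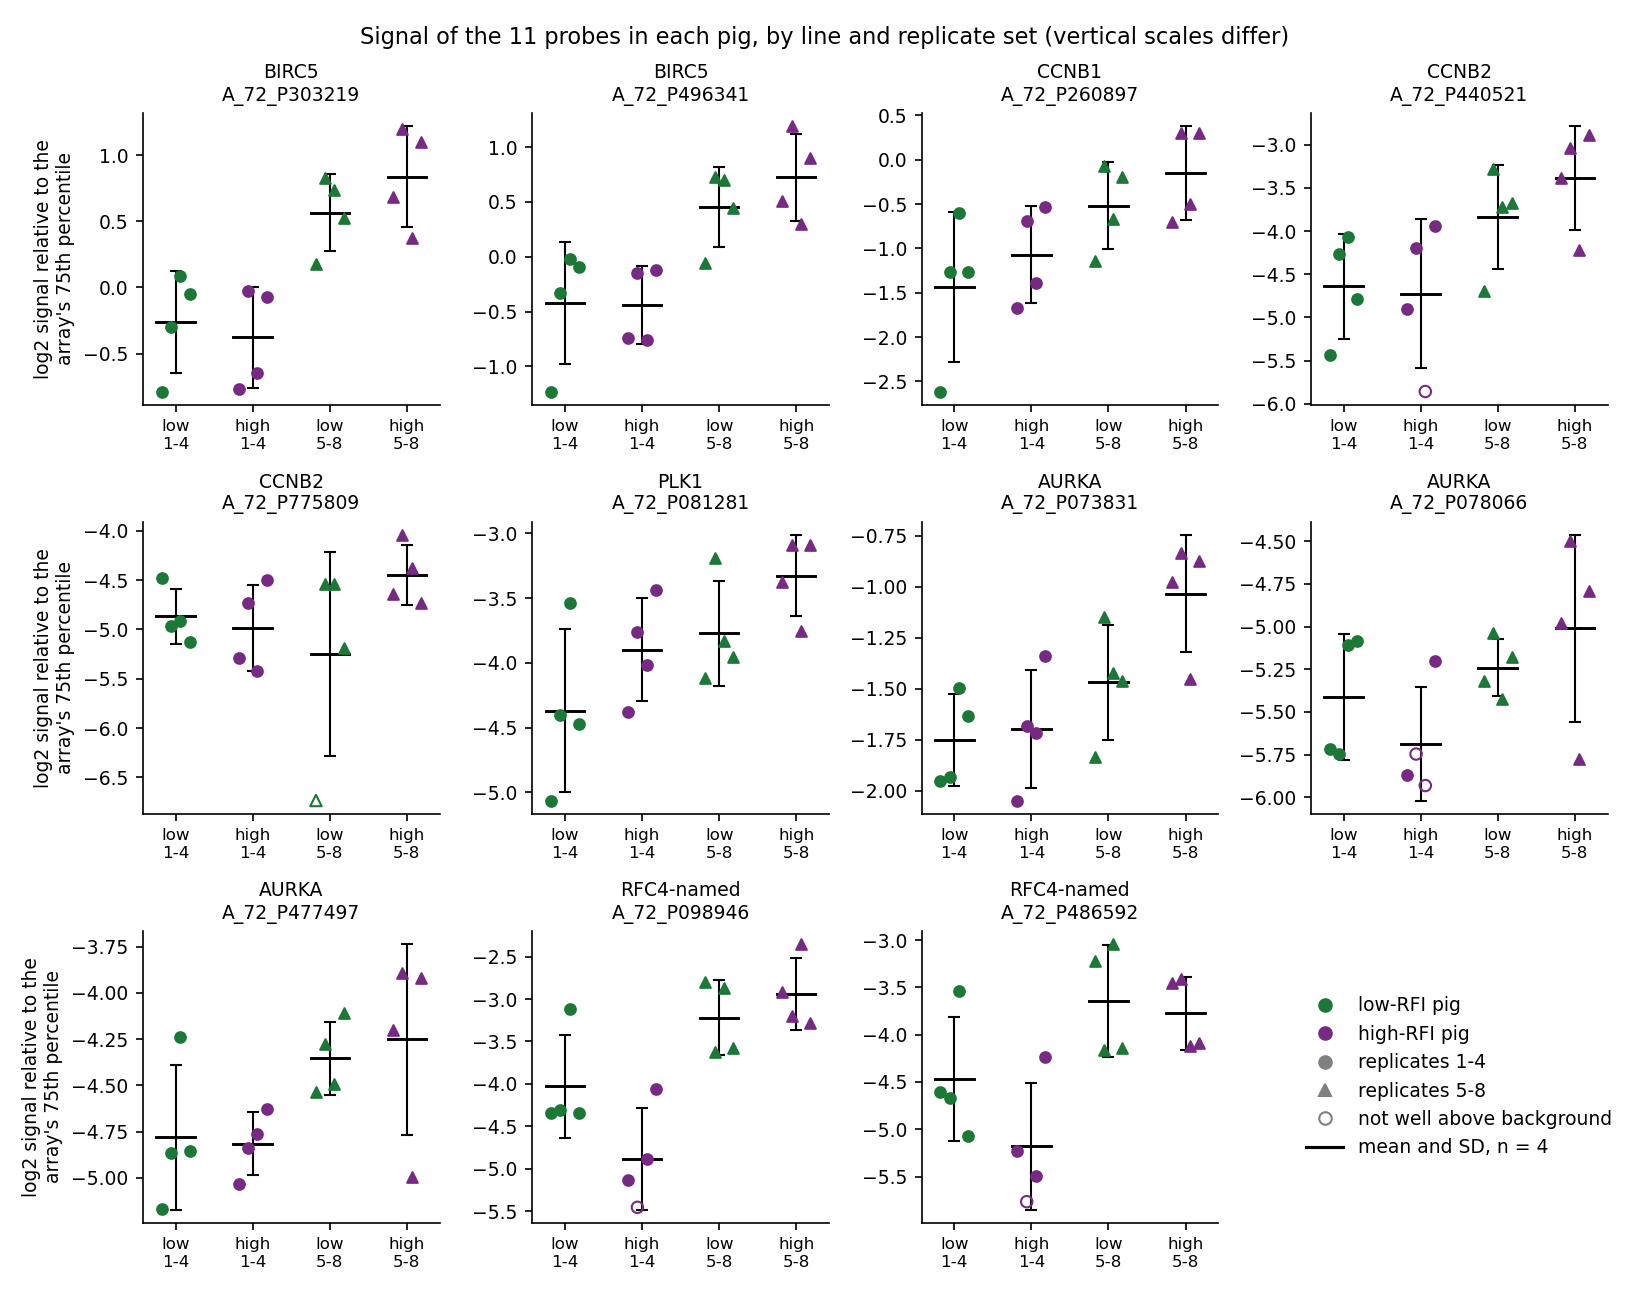
Log2 signal relative to the array's 75th percentile (vertical axis, scale differs by panel) of the 11 probes in each pig, by line and replicate set (horizontal axis). Bars give the mean and SD of 4 pigs, and open symbols were not well above background; for BIRC5 A_72_P303219 the lowest pig of replicates 5-8 (0.17) lies above the highest of 1-4 (0.08).

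The cyclins B stood higher in replicates 5-8 without passing the threshold, an adjusted p of 0.05. CCNB1 had a lowest, median and highest signal of -2.61, -1.26 and -0.53 in replicates 1-4 and of -1.14, -0.34 and 0.30 in replicates 5-8. The sets overlapped, and the difference was 0.92 (SE 0.28, limma adjusted p = 0.0633). CCNB2 was read by a pair of probes that did not give the same picture. Probe A_72_P440521 ran from -5.86 through -4.53 to -3.94 in replicates 1-4 and from -4.69 through -3.53 to -2.88 in replicates 5-8, a difference of 1.07 (SE 0.31, limma adjusted p = 0.0565). Probe A_72_P775809 ran from -5.42 through -4.94 to -4.47 and from -6.74 through -4.59 to -4.04, a difference of 0.08 (SE 0.29, limma adjusted p = 0.902). The lowest of these last values, low-RFI pig 5, was not well above background. The CCNB2 probes correlated with each other at r = 0.46 over 16 arrays, against 0.99 for the BIRC5 pair.

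Of the mitotic kinases, no probe passed between the sets. PLK1 had a lowest, median and highest signal of -5.06, -4.20 and -3.44 in replicates 1-4 and of -4.12, -3.56 and -3.09 in replicates 5-8, a difference of 0.58 (SE 0.21, limma adjusted p = 0.102). Its sets overlapped widely, from -4.12 to -3.44. AURKA A_72_P073831 ran from -2.05 through -1.70 to -1.34 and from -1.84 through -1.29 to -0.83, a difference of 0.47 (SE 0.14, limma adjusted p = 0.0575). The overlapping AURKA probes had differences of 0.42 (SE 0.19) and 0.49 (SE 0.16), neither past the threshold. One of them, A_72_P078066, was well above background on 14 arrays.

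The RFC4-named probes had the largest differences between the sets among the 11. A_72_P098946 ran from -5.46 through -4.34 to -3.12 in replicates 1-4 and from -3.62 through -3.06 to -2.35 in replicates 5-8, a difference of 1.38 (SE 0.28, limma adjusted p = 0.0173). A_72_P486592 differed by 1.12 (SE 0.27, limma adjusted p = 0.0324). In both probes low-RFI pig 3 was the only pig of replicates 1-4 to reach into the range of replicates 5-8. When each array was left out in turn, A_72_P098946 and both BIRC5 probes passed in 16 of 16 fits, but A_72_P486592 in 5, with an adjusted p of up to 0.0673. The probe described as IGF2BP2 differed by 1.42 (SE 0.28, limma adjusted p = 0.0171), side by side with them.

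In all, 4 of the 11 members passed the threshold between replicate sets, all higher in 5-8, where 5.18% of all probes passed in either direction and 1.99% higher. Without the RFC4-named probes it was 2 of 9, both of BIRC5, so that 1 of 5 genes passed. The difference was above 0 for 11 of 11 members, where 45.2% of all probes were above 0, and the median was 0.92 for the members (0.58 without the RFC4-named probes) and -0.03 for all probes. At an unadjusted p under 0.05, 10 members stood higher, against 9.32% of all probes higher and 23.5% in either direction. Without the RFC4-named probes it was 8 of 9. Members share pigs and, within a gene, target transcripts, so these counts are no replicates, and the genes were proposed with results of these arrays known. Within slides the difference was above 0 on all 4 slides for 7 members and on 3 slides for the other 4. Normexp background correction left 0 members past the threshold (17 of all probes). Without the 4 arrays set apart, 0 members and 0 of all probes passed by limma, 6398 of all probes having an unadjusted p under 0.05, while the BIRC5 differences were 1.002 and 0.985; without low-RFI pig 3, 9 members and 4790 of all probes passed, against 1662 with it.

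**Figure D2:**
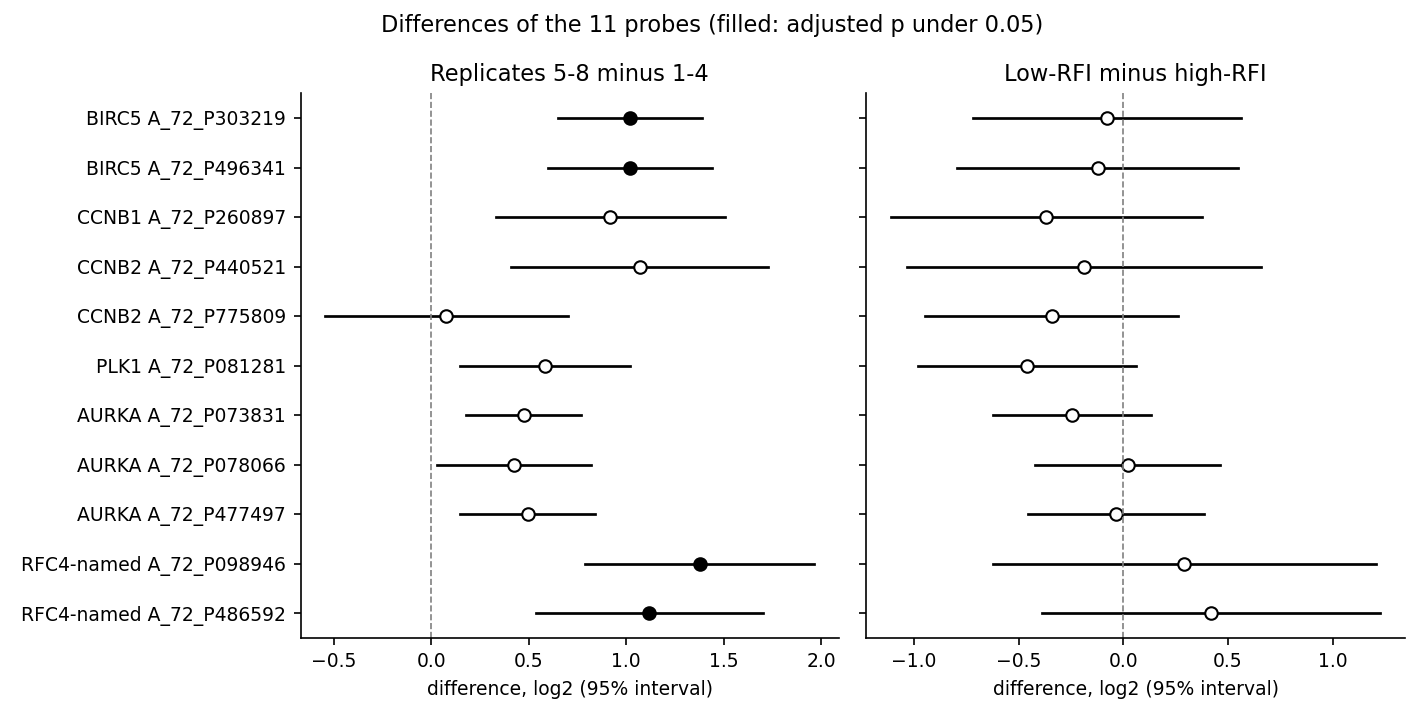
Log2 differences with 95% intervals (horizontal axis) of the 11 probes (vertical axis), replicates 5-8 minus 1-4 on the left and low-RFI minus high-RFI on the right. All 11 points lie above 0 on the left and 4 are filled as past the threshold; on the right all 11 intervals include 0.

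Some markers of other cells differed between the replicate sets as well, and their part in the results was not tested. Of 7 epithelial markers tested, 2 passed, higher in replicates 5-8: CLDN3, a tight junction protein, by 4.01 (SE 0.72, limma adjusted p = 0.0134) and CLDN4 by 3.04 (SE 0.66, limma adjusted p = 0.0224). The rest of the list did not pass, with EPCAM, DSP and DSG1 at 0.38, 0.33 and 0.12 and CDH1 and KRT8 at -0.18 and -0.17. The summed signal of that list ranged from -0.72 to 3.30 in replicates 1-4 and from 0.50 to 4.24 in 5-8. Among 6 macrophage markers, LYZ (lysozyme) was lower by -1.88 (SE 0.44, limma adjusted p = 0.0291), and their sum ranged from 3.28 to 4.44 and from 2.93 to 5.45. The other macrophage markers did not pass, with CD163, CD14 and AIF1 at 0.55, 0.16 and 0.08 and GP91-PHOX and TYROBP at -0.31 and -0.15. Of the fat cell, fibroblast, endothelial, T and NK cell, B cell and skeletal muscle markers, 11, 4, 8, 7, 3 and 7 were tested and 0 passed by limma; at an unadjusted p under 0.05 there were 2, 2, 3, 0, 0 and 0, those of fat and endothelial cells all lower in replicates 5-8 and those of fibroblasts 1 higher and 1 lower. The mean of a marker list correlated with the mean of the 6 genes at r = -0.52 for fat cells, -0.50 for endothelial cells, 0.52 for epithelium, 0.31 for T and NK cells, 0.29 for fibroblasts, 0.20 for skeletal muscle, -0.16 for macrophages and 0.04 for B cells. For T and NK cells it was 0.87 within replicates 1-4 and 0.10 within 5-8, for fat cells -0.16 and -0.58, for endothelial cells -0.67 and -0.06, and for epithelium 0.25 and 0.39. The fibroblast list also holds preadipocyte markers. Its single markers had r of 0.67 (DPP4), -0.15 (DCN), -0.36 (DLK1) and -0.39 (THY1) over 16 arrays, with a median of -0.26. Single epithelial markers had a median r of 0.29. CLDN3 and CLDN4 stood at 0.69 and 0.65, and the rest between 0.08 (CDH1) and 0.30 (DSG1). The summed fat cell signal ranged from 10.5 to 11.1 in replicates 1-4 and from 10.4 to 10.8 in replicates 5-8. That of T and NK cell markers ranged from -0.99 to 0.14 and from -1.41 to 1.35. The ranges were 7.46 to 8.18 and 7.25 to 7.92 for fibroblast markers, 5.81 to 6.54 and 5.94 to 6.39 for endothelial markers, -0.16 to 1.38 and 0.11 to 1.20 for B cell markers, and 3.58 to 4.79 and 3.70 to 10.2 for skeletal muscle markers.

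The members varied together from pig to pig. Pearson r between the 6 genes, each the mean of its probes, had a median of 0.74 over the 15 pairs and 16 arrays (0.41 to 0.91), where the median over all pairs of 31665 probes was 0.01 and the 95th percentile 0.53. Without RFC4 the 10 pairs had a median of 0.82 (0.72 to 0.91). The closest pair was PLK1 with CCNB1 (0.91), BIRC5 was the closest partner of AURKA (0.88) and CCNB2 (0.78), and CCNB1 that of BIRC5 (0.90). These values are descriptions, and all genes of an array share its RNA and its scaling. The reference over all pairs is for single probes, whereas a member gene's probes were averaged. Taken singly, CCNB2 A_72_P775809 had r of 0.05 to 0.52 with the probes of the other genes, and CCNB2 A_72_P440521 of 0.53 to 0.91.

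Covariation was also measured inside each replicate set, where the difference between sets plays no part. Within the 8 arrays of replicates 1-4 the 10 pairs without RFC4 had a median r of 0.71 (0.48 to 0.93), and within those of replicates 5-8 it was 0.82 (0.67 to 0.89). The 95th percentile over all pairs of probes was 0.69 and 0.67 there, and the lowest of the 10 pairs, 0.48 and 0.67, did not exceed it. The median r of the 10 pairs was 0.85 among low-RFI pigs and 0.91 among high-RFI pigs. The 95th percentile over all pairs of probes was 0.70 and 0.69 in these lines. The arrays farthest from the median of the member mean were low-RFI pig 1 and high-RFI pig 1, and without both the median was 0.80. Over the 15 pairs the median was 0.71 without the 4 arrays set apart and 0.41 with normexp background correction.

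**Figure D3:**
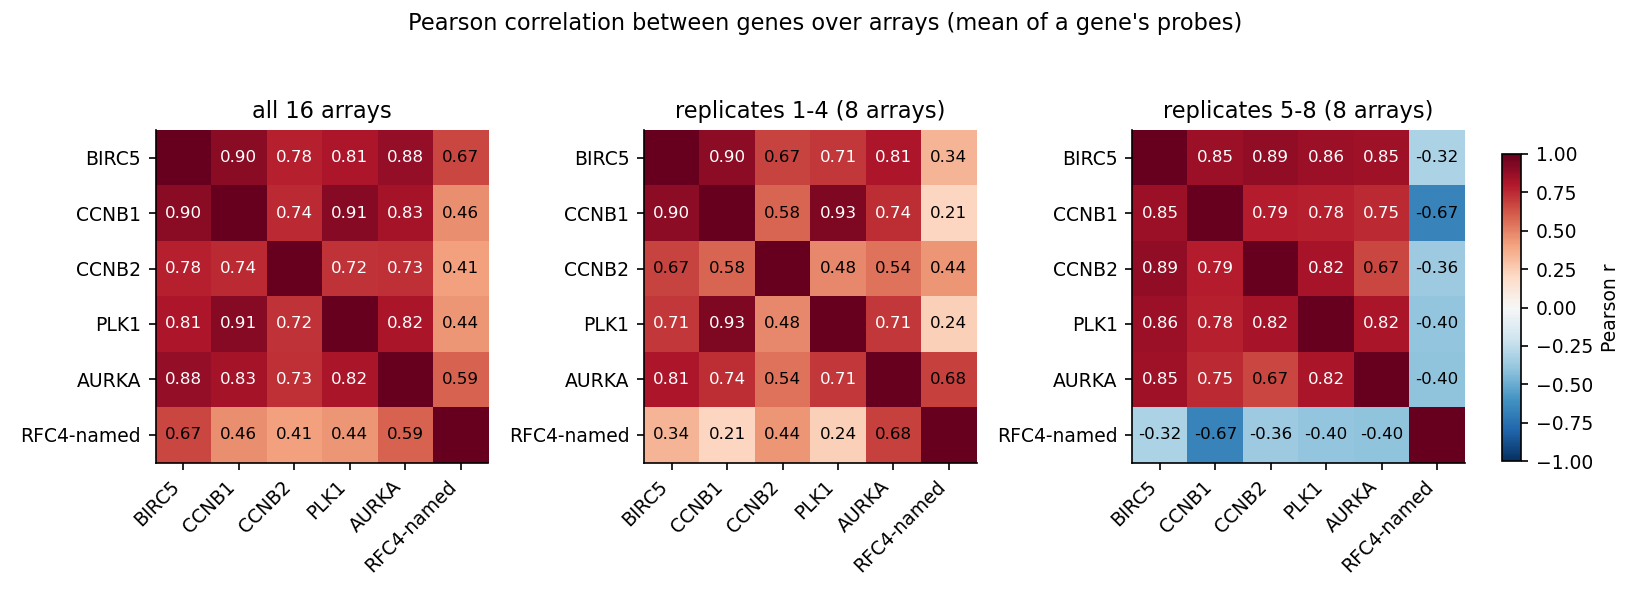
Pearson r between the 6 genes over all arrays and within each replicate set (both axes list genes, colour and number give r). The 5 genes other than RFC4 keep r between 0.67 and 0.89 within replicates 5-8, where RFC4-named values lie between -0.67 and -0.32.

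The RFC4-named mean had other correlations than the rest inside a replicate set. Their 5 pairs had a median r of 0.46 over 16 arrays and of 0.34 within replicates 1-4, but of -0.40 within replicates 5-8 (-0.67 to -0.32). The 2 RFC4-named probes themselves correlated at 0.96 within replicates 1-4 but at 0.37 within 5-8. There A_72_P098946 had r of -0.46 and -0.48 with the BIRC5 probes, and A_72_P486592 of -0.07 and -0.08. In replicates 5-8 the RFC4-named signal was highest in low-RFI pigs 7 and 5, at 1.06 and 1.004 above its mean over all arrays. In low-RFI pig 5 each of the other 5 genes was below its own mean, with CCNB2 at -1.20. In replicates 1-4 high-RFI pig 2 had the widest gap, with RFC4-named signal at -1.59 and the mean of the other 5 genes at -0.06; both RFC4-named probes were not well above background there. The probe described as IGF2BP2 had an r of -0.21 with the mean of the 6 genes within replicates 5-8.

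**Figure D4:**
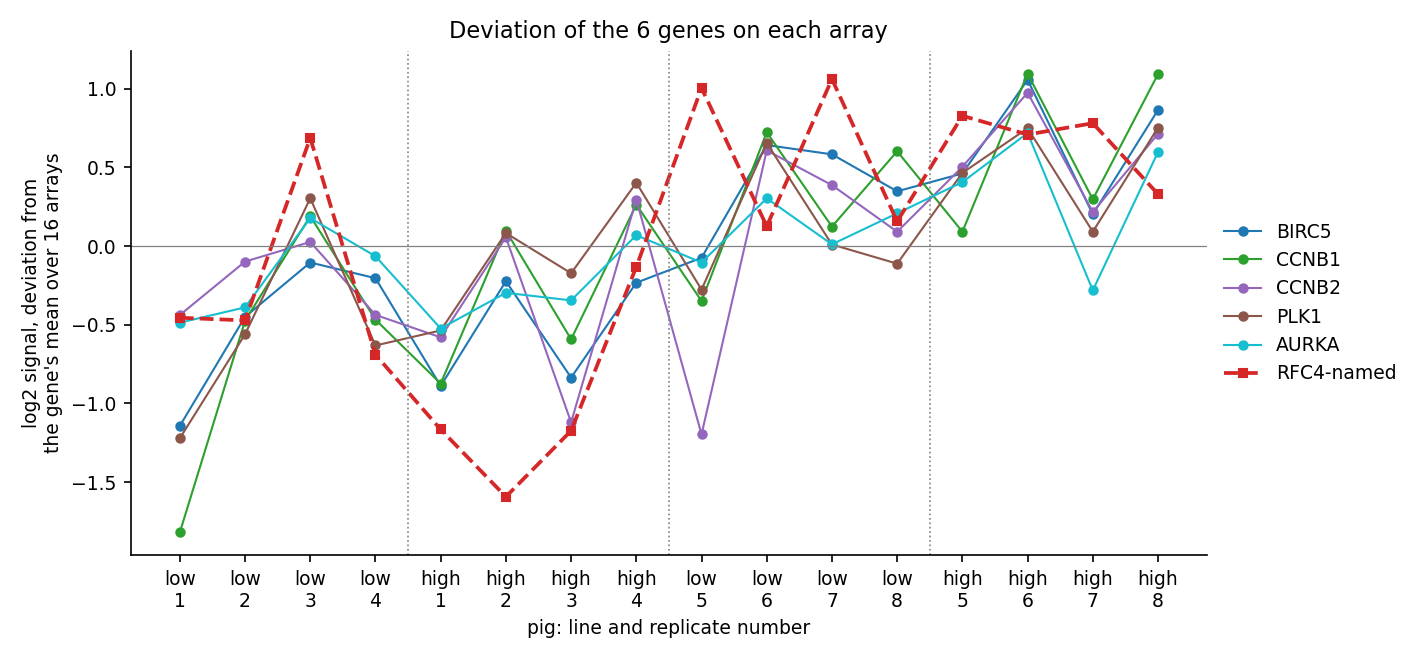
Deviation of each gene's log2 signal from its mean over 16 arrays (vertical axis) in each pig, in blocks of line and replicate set (horizontal axis; the order of pigs within a block has no meaning). Low-RFI pig 1 and high-RFI pig 1 are low in all 6 genes, high-RFI pigs 6 and 8 are high in all 6, and the dashed RFC4-named line departs from the others in high-RFI pig 2 and low-RFI pigs 5 and 7.

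Averaged over the 6 genes, each centred on its own mean, the pigs ranged from -0.93 in low-RFI pig 1 to 0.88 in high-RFI pig 6. The mean was -0.40 ± 0.40 (SD, n = 8) in replicates 1-4 and 0.40 ± 0.33 (SD, n = 8) in replicates 5-8. The sets overlapped between -0.17, in low-RFI pig 5, and 0.21, in low-RFI pig 3. By line and set it was -0.38 ± 0.47 and -0.42 ± 0.41 in low- and high-RFI pigs of replicates 1-4, and 0.23 ± 0.29 and 0.57 ± 0.29 in those of replicates 5-8 (SD, n = 4 each). Without RFC4-named signal the means were -0.41 ± 0.47 and -0.30 ± 0.41, and 0.16 ± 0.41 and 0.55 ± 0.38, so that the order of the lines within replicates 1-4 turned around, by less than the SD.

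Between the lines, the study's own comparison, 0 members passed and 0% of all probes did by limma. At an unadjusted p under 0.05 there were 0 members and 3.68% of all probes. Of the 11 members, 8 were lower in low-RFI pigs and 3 higher, with a median difference of -0.12, where 50% of all probes were lower; without the RFC4-named probes 8 of 9 were lower, with a median of -0.19. PLK1 had the largest difference: its lowest, median and highest signal were -5.06, -4.04 and -3.19 in low-RFI pigs and -4.38, -3.59 and -3.09 in high-RFI pigs, a difference of -0.46 (95% interval -0.98 to 0.06). The lines overlapped over most of their range in PLK1 and did not separate for any member, as they did for 0.0125% of all probes. CCNB1 differed by -0.37 (-1.11 to 0.38), CCNB2 by -0.19 (-1.03 to 0.66) and -0.34 (-0.95 to 0.26), and BIRC5 by -0.08 (-0.72 to 0.56) and -0.12 (-0.79 to 0.55). AURKA differed by -0.25 (-0.62 to 0.13) in 1 probe and by 0.02 and -0.03 in the overlapping pair. The RFC4-named probes differed by 0.29 (-0.63 to 1.21) and 0.42 (-0.39 to 1.23). A 2-fold difference lay inside the interval of 4 probes (CCNB1, CCNB2 A_72_P440521 and both RFC4-named), so the number of pigs limits what could be seen. Of the cell markers 0 passed between the lines by limma. The median line difference of a marker list was -1.45 for epithelium, -0.40 for T and NK cells, -0.39 for macrophages and -0.20 for endothelial cells. It was 0.95 for skeletal muscle, 0.15 for fibroblasts, 0.01 for fat cells and -0.001 for B cells. Their part in the results was not tested.

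Whether the line difference itself changed between the sets was tested as an interaction, and 0 members and 0% of all probes passed by limma, with 1 member and 6.81% of all probes at an unadjusted p under 0.05. The line difference was the more negative in replicates 5-8 for 10 of 11 members, where 50.3% of all probes went the other way. Within replicates 1-4 the low-RFI pigs were higher in 8 members and within 5-8 lower in 10; in either set 0 members and 0% of probes passed, with 1 member each at an unadjusted p under 0.05, against 6.34% and 5.79% of all probes. These were RFC4-named A_72_P098946 in replicates 1-4 (0.86, SE 0.34) and AURKA A_72_P073831 in replicates 5-8 (-0.43, SE 0.19).

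Genes outside the 8 listed were ranked by how closely their signal followed the members. Among 4153 genes with a symbol, each by its brightest probe, the median r with the mean of the 6 genes was -0.06 and the 95th percentile 0.58. The 10 highest outside the 8 listed genes were KIF4A (0.97) and KIFC1 (0.97), motor proteins of the spindle and chromosomes, TACC3 (0.97) and DLGAP5 (0.95), which stabilise spindle fibres, CCNF (0.94), a cyclin-like ubiquitin ligase subunit, CDCA3 (0.94), ESPL1 (0.94), the protease that separates sister chromatids, SGO1 (0.94), which protects their cohesion, CENPF (0.94), a kinetochore protein, and CIT (0.94), a kinase of cell cleavage. Their r lay between 0.86 and 0.98 within replicates 1-4 and between 0.86 and 0.96 within 5-8. It lay between 0.907 and 0.960 without the 2 farthest arrays. With the mean that leaves out RFC4-named signal, their r over 16 arrays lay between 0.948 (SGO1) and 0.987 (KIF4A). Of these 10, 9 passed between the replicate sets, by 0.89 to 1.32, and ESPL1 did not (0.86, SE 0.28, limma adjusted p = 0.0777). Of the 9, DLGAP5 passed in 15 of 16 fits that left out 1 array, KIFC1 in 8, and each of the others in 2 to 6. They were picked for their likeness to genes that differ between the sets, so this count is no separate evidence. The probe labelled TOPOII, which RefSeq names TOP2A and the rule left out, had an r of 0.94 with the mean (0.92 and 0.89 within the sets) and differed by 1.15 (SE 0.35, limma adjusted p = 0.0688).

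Other genes of the cell cycle were taken from 4 lists. Of 17 mitotic genes tested (18 of 61 listed were named on the array), 4 passed between the replicate sets, all higher in 5-8, with a list median of 0.72 against -0.03 over all probes. The largest were DLGAP5 (1.32, SE 0.30), CENPF (1.28, SE 0.32) and KIF4A (1.07, SE 0.27), and the fourth was CDC25C (0.54, SE 0.12), a phosphatase that frees the mitotic kinase. CDK1, that kinase itself, differed by 1.08 (SE 0.34, limma adjusted p = 0.0734) and had an r of 0.93 with the member mean. MKI67, the gene of the Ki-67 proliferation antigen, stood at 0.19 (SE 0.13, limma adjusted p = 0.393) with an r of 0.31, and AURKB at 0.15 (SE 0.10) with an r of 0.28. CDK1, MKI67 and AURKB were picked out after their values were seen. The list's mean had an r of 0.96 with the member mean.

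Replication genes followed the members less evenly. All 7 listed genes named on the array were tested, and 3 were higher in replicates 5-8: MCM3, of the replication helicase, by 0.83 (SE 0.22, limma adjusted p = 0.0446), ORC4, of the origin recognition complex, by 0.49 (SE 0.11, limma adjusted p = 0.0251), and CDC45, a helicase partner, by 0.35 (SE 0.10, limma adjusted p = 0.0462). PCNA, the sliding clamp that RFC4's complex loads, stood at 0.13 (SE 0.11, limma adjusted p = 0.513), and RFC5, a partner subunit of RFC4, at -0.20 (SE 0.10, limma adjusted p = 0.221). PCNA had an r of 0.59 and RFC5 of -0.33 with the member mean. The rest of the list, WDHD1 and POLA1, stood at 0.33 (SE 0.35) and 0.06 (SE 0.10), with r of -0.15 and 0.06. The list's mean correlated with the member mean at 0.62 over 16 arrays, but at -0.56 within replicates 1-4 and 0.83 within 5-8.

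Of 9 genes on the list of G1 cyclins, their kinases, and E2F and RB relatives, which also holds MYC and MYBL2, 2 were higher in replicates 5-8. They were CCND2 by 0.88 (SE 0.24, limma adjusted p = 0.0446) and MYC by 0.72 (SE 0.17, limma adjusted p = 0.0285). All 9 differences were above 0, with a median of 0.47. Of 9 inhibitors of the cycle, CDKN1B, the p27 inhibitor of cyclin-dependent kinases, was lower by -0.34 (SE 0.09, limma adjusted p = 0.0497), and its r with the member mean was -0.71. The list's median was -0.11 and 3 of 9 differences were above 0. CDKN3, a phosphatase acting on cyclin-dependent kinases and picked out after its value was seen, stood at 0.56 (SE 0.18, limma adjusted p = 0.0731) with an r of 0.75. When each array was left out in turn, DLGAP5 and CDC25C passed in 15 of 16 fits, ORC4 in 12, MYC in 10, CENPF and CDC45 in 4, KIF4A and MCM3 in 3, and CCND2 and CDKN1B in 2. Without the 4 arrays set apart, none of these 10 passed by limma, with adjusted p between 0.0844 and 0.18. Between the lines 0 genes of the 4 lists passed by limma, and 0 had an unadjusted p under 0.05. The smallest unadjusted p were those of HMGB2 (-0.16) and PTTG1 (-0.32) among mitotic genes, RFC5 (-0.17) and MCM3 (0.31) among replication genes, CDK2 (-0.19) and CCND2 (0.43) on the list of G1 cyclins, and GADD45A (0.22) and GADD45G (0.22) among inhibitors.

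**Figure D5:**
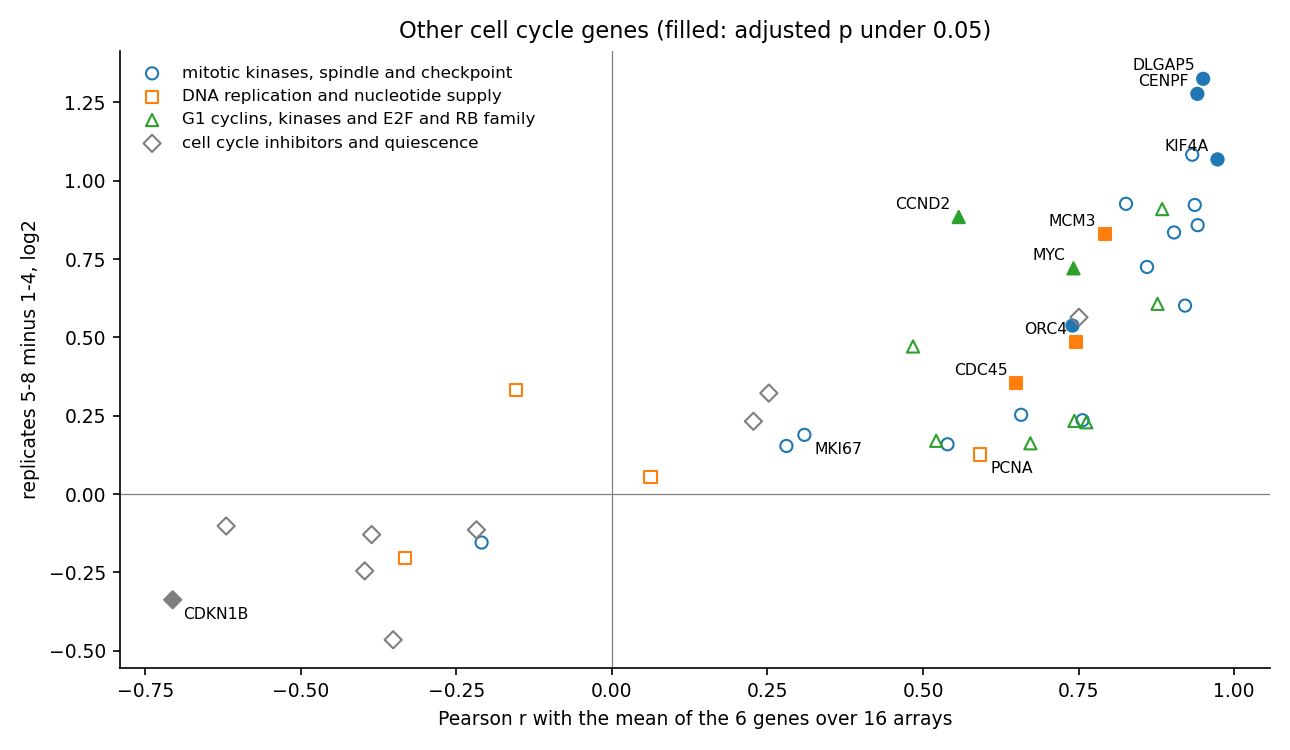
Log2 difference between replicates 5-8 and 1-4 (vertical axis) against Pearson r with the mean of the 6 genes over 16 arrays (horizontal axis) for the genes of the 4 lists. Mitotic genes such as DLGAP5 and KIF4A lie at the upper right, MKI67 (r 0.31) and PCNA (r 0.59) low in the plot, and CDKN1B (r -0.71) at the lower left; both axes come from the same arrays.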

How the data were processed

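RNA of subcutaneous fat from 16 pigs was labelled with Cy3 (150 ng) and hybridised to 1-colour Agilent arrays, per the labels' protocols. Per the file headers, Feature Extraction 10.7.3.1 made the deposited intensity values (processed signals, background subtracted). The authors' deposited log2 table holds 28963 spots, each the log2 processed signal minus the array's median over these spots (largest gap 4.86e-08), and served as an alternative. The submitters' processing notes name R 2.10.0. 0 columns lacked a sample.

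Here each array's log2 signal was set relative to its 75th percentile over non-control spots. Spots with outlier flags were left out (0.119% of values of the probes kept), and a probe's spots were averaged. Probes well above background on at least 8 arrays with at least 6 values per line were kept, 32096 in all. limma 3.58.1 (R 4.3.3) fitted line, replicate set beside line, and their interaction, with Benjamini-Hochberg adjustment over all these probes and a threshold of 0.05. Scripts were tested on simulated data. The main fits did not pair pigs by replicate number. Same-numbered pigs correlated at -0.30 to 0.32, with 3 of 8 over 0.1, which cannot show whether the numbers carried a pairing. P-values measure the spread between pigs, 1 array each, and the number of arrays limits the precision.

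The members, gene lists, marker lists and the replicate sets were chosen with earlier results of these data known. Named genes were all members, the 10 genes most like their mean, and from each list up to 3 past the threshold in a direction with the largest difference, or with none the 2 with the smallest p; CDC25C was added as the only other one past it. Between the replicate sets CDK1, MKI67, AURKB, PCNA, RFC5, WDHD1, POLA1 and CDKN3 were named outside this rule, as were further cell markers. Gene symbols came from the scanner files and the RefSeq table of Sscrofa11.1. Erythroid markers were not tested. Alternatives were quantile and median scaling, normexp background correction (offset 50), the deposited table, other filters, slide and replicate blocks, array weights and leaving arrays out.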

Additional observations from a re-analysis of the deposited data

Results flagged for a closer look

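CCNB1 in low-RFI pig 1 stood at -2.613, far below the next lowest pig of its line at -1.268. That pig was also the lowest in the mean of the 6 genes (-0.93). CCNB2 A_72_P775809 in low-RFI pig 5 stood at -6.735, with the next lowest pig of its line at -5.184; the probe was not well above background there. Both were picked by the size of the gap to the other pigs of the line, in 22 groups of 8 examined, of which chance gives about 1 in 20.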

How the results depend on the processing

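Between the replicate sets 4 members and 1662 probes passed. With normexp background correction 0 members and 17 probes did (2864 probes at an unadjusted p under 0.05), with 11.8% of them higher against 38.5%. Array weights gave 9 members and 5316 probes, no filter 3 and 865, and omission of the 4 arrays set apart 0 and 0. Leaving out single arrays gave 3 to 9 members and 603 to 4790 probes, the most without low-RFI pig 3. The median correlation was 0.41 with normexp and 0.70 to 0.81 when single arrays were left out. The causes were not tested.

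Between the lines 0 members passed under any alternative run, a replicate block included. With normexp the median difference over all probes was -0.12, against -0.00013 in the main fit. Some differences changed sign. With normexp these were AURKA A_72_P078066 (-0.31), RFC4-named A_72_P098946 (-0.20) and A_72_P486592 (-0.19) and MCM3 (-0.17). With array weights they were BIRC5 (0.14 and 0.10), CCNB2 A_72_P440521 (0.057) and AURKA A_72_P477497 (0.085), and without the 4 arrays set apart BIRC5 (0.10 and 0.042), CCNB2 A_72_P440521 (0.040) and AURKA A_72_P477497 (0.033). Leaving out single arrays gave -0.062 to 0.14 and -0.11 to 0.057 for the overlapping AURKA probes and -0.22 to 0.059 and -0.25 to 0.055 for BIRC5. Between the replicate sets CCNB2 A_72_P775809 changed sign, at -0.024 without the 4 arrays and -0.023 to 0.34 without single ones. Low signal limits both CCNB2 probes, AURKA A_72_P078066 and both RFC4-named probes, which were not well above background on every array.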
